A study of Mus musculus with 11 samples.

Results

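Small nucleolar RNAs (snoRNAs) and small Cajal body RNAs were described in 11 RNA-seq libraries of mouse oocytes and 2-cell embryos with and without maternal Daxx. The members were all genes of the deposited table whose symbol begins with Snord, Snora or Scarna followed by a digit, which gave 109 of 24421 genes: 66 Snord, 34 Snora and 9 Scarna genes. The Daxx protein places the histone variant H3.3 on chromatin. All females were homozygous for floxed Daxx, with C57BL/6J and 129/Sv as their mixed strain background. Control oocytes, arrested at metaphase II, came from Daxx f/f females (3 libraries), and knockout oocytes from Daxx f/f females that also carried Zp3-cre, a Cre transgene under the promoter of an oocyte-specific zona pellucida gene (3 libraries). Control 2-cell embryos (m+z+, 3 libraries) and maternal knockout 2-cell embryos (m-z+, 2 libraries) were made from such oocytes by in vitro fertilization with JF1 sperm, which leaves zygotic Daxx in place (z+). All females were given PMSG (5 IU) and then hCG (5 IU). Oocytes were taken 20 hours after hCG from females over 8 weeks old, and embryos 33 hours after fertilization. For each library 50 oocytes or embryos of 2 to 3 females were pooled, so the p-values below measure the spread between such pools. Only knockout females carried Cre, so the loss of Daxx and the presence of the transgene cannot be told apart.

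Both families of snoRNAs work in the nucleolus as guides held by proteins. C/D box RNAs, the products of Snord genes, pair with ribosomal RNA and direct the methyltransferase fibrillarin to a ribose, while H/ACA box RNAs, from Snora genes, direct the pseudouridine synthase dyskerin. A few members of each family instead serve in cutting the ribosomal RNA precursor, and the Cajal body RNAs guide the same modifications on spliceosomal RNAs. In mammals most of these RNAs have no promoter of their own. They are trimmed from introns of host genes, many of which encode ribosomal proteins or are long noncoding RNAs. Fully grown mouse oocytes transcribe little, and transcription of the new genome, including ribosomal RNA genes, starts again during the first cell cycles after fertilization.

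The sequences below show the RNAs on which the results turn: the member that differed between embryo genotypes (Snord73b) and its neighbour in the same host (Snord73a), 2 other C/D RNAs with high values in the same embryos (Snord34 and Snord82), and the 3 members with the highest level per length (Snord118, Snora47 and Snord49b). They are GENCODE transcripts of build GRCm38, in DNA letters, 5′ to 3′. Capitals mark the C box (TGATGA within the first 20 bases), the D box (CTGA within the last 20 bases) or, in Snora47, the ACA (within the last 8 bases).
Snord73b: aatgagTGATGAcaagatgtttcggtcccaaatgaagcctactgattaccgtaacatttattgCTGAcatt
Snord73a: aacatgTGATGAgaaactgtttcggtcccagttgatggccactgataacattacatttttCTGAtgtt
Snord34: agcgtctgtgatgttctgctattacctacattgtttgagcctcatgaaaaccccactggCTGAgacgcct
Snord82: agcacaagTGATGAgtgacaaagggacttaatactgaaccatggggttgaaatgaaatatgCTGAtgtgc
Snord118: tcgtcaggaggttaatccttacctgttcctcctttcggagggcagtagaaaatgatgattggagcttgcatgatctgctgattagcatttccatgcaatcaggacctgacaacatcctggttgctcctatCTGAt
Snord49b: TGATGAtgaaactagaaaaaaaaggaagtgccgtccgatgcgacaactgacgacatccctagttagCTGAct
Snora47: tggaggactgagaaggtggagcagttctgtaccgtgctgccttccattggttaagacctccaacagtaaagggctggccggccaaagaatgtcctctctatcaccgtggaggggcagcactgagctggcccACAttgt

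All 109 members had a GENCODE transcript to search on its own strand. The letters TGATGA stood in the first 20 bases of 39 of 66 Snord RNAs (59.1%), 0 of 34 Snora RNAs and 0.700% of the 141767 transcripts of the annotation. The letters CTGA stood in the last 20 bases of 64 of 66 Snord RNAs (97.0%) and 4 of 34 Snora RNAs, against 9.24% of all transcripts. ACA was found in the last 8 bases of 32 of 34 Snora RNAs (94.1%) and 7 of 66 Snord RNAs, against 11.5% of all transcripts. A Snord RNA without a match, such as Snord34 with TGATGT at that place, was not judged further, because the C box is known to vary.

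By position, 104 members lay on the same strand inside a gene that is no member, their host, and these were 78 different hosts. Of these members, 80 had a protein-coding host and 24 a long noncoding one. For Snord118, also called U8, Scarna2, Scarna17, Snord89 and Snora74a no host on the same strand was matched among the RefSeq genes. By position alone, Snora74a lies within Snhg4 and Scarna17 within Gm41774. A gene whose strand was not found in the annotation could not be matched, so a missing match does not show that a host is absent. For Snord89 and Snora74a the GENCODE annotation does hold a gene on the same strand. It places Snord89 in an intron, and Snora74a overlaps an exon of a transcript that is not basic. In the annotation, 58 members lay in introns, 10 overlapped an exon of a basic transcript, 38 an exon of another transcript, and 3 were intergenic. Reads from a mature snoRNA, from an unspliced host and from an overlapping exon cannot be told apart in a count per gene. Snord73b lies at chr3:86140617-86140687 on the minus strand, in an intron of Rps3a1, which encodes ribosomal protein S3a. Snord73a lies in another position of the same host, at chr3:86138791-86138858. The alignment of both had 52 identical positions in 71 columns (73.2%), and their longest shared run was TGTTTCGGTCCCA, of 13 bases.

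Counted reads were 32582998 to 39798586 in the oocyte libraries and 17978192 to 25308468 in the embryo libraries. Levels are given as CPM, the reads of a gene scaled to its library's total of counted reads (counts per 1e6), and 0 reads allow up to 0.0754 to 0.167 CPM (3 reads, counting error only). Daxx stood at 97.2, 94.2 and 86.2 CPM in control oocytes, at 8.20, 8.40 and 7.83 CPM in knockout oocytes, at 37.3, 35.2 and 46.7 CPM in control embryos and at 22.8 and 25.5 CPM in maternal knockout embryos. The 7 oocyte markers summed to 9414 to 9788 CPM in oocytes, 1473 to 1775 CPM in control embryos and 1954 to 1960 CPM in maternal knockout embryos, and the 6 markers of 2-cell embryos to 2.24 to 4.31 CPM and 607 to 750 CPM. Markers of cumulus and granulosa cells (11 genes) summed to 28.7 to 32.3 CPM in control oocytes, 34.3 to 38.6 CPM in knockout oocytes and 9.35 to 17.9 CPM in embryos. Sperm and spermatid markers (5 genes) summed to 1.90 to 2.68 CPM in control oocytes, 5.16 to 6.42 CPM in knockout oocytes and 0.612 to 3.91 CPM in embryos. Of these, Prm1, Tnp1 and Tnp2 were at 0 in control oocytes, and Tnp1 and Tnp2 in knockout oocytes. The oocyte sums thus rest on the remaining genes of the list. Blood markers (3 genes) summed to at most 0.184 CPM. Hbb-bs, a globin gene, was at 0 in every library. The part of these cells in the results below was not tested. The embryo libraries numbered 2 stood apart in Lars2, at 18462 CPM (control) and 18088 CPM (maternal knockout), against 4820 to 8707 CPM in the other 3 embryo libraries.

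More members were detected in embryos than in oocytes, although the embryo libraries were shallower. At least 1 read was counted for 103 to 105 of the 109 members in each oocyte library and for 107 to 109 in each embryo library, and 100 members had reads in every library. At least 100 reads were counted for 41 to 47 members in oocytes and 68 to 87 in embryos. With every library thinned to the 17978192 reads of the shallowest, the expected number with a read was 100 to 103 in oocytes and 107 to 109 in embryos. The H/ACA RNA Snora35, from an intron of the serotonin receptor gene Htr2c, had 1 read in 1 maternal knockout embryo library and none in the other 10. Snord43 had 0, 0 and 1 read in control oocytes, 0 in each knockout oocyte library, 1, 6 and 3 in control embryos, and 5 and 1 in maternal knockout embryos.

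The members together took a share of the counted reads that was about 6 times larger in embryos. Their summed level was 962, 1077 and 996 CPM in control oocytes and 978, 1138 and 1139 CPM in knockout oocytes. In control embryos it was 4409, 9042 and 5879 CPM, and in maternal knockout embryos 6822 and 6942 CPM. The means were 1012 ± 59.0 CPM (SD, n = 3), 1085 ± 92.3 CPM (n = 3), 6443 ± 2368 CPM (n = 3) and 6882 ± 85.1 CPM (n = 2). Every embryo library was above every oocyte library, and the genotypes overlapped at both stages. The ratio of embryo to oocyte means was 6.37 in controls and 6.34 after maternal knockout, and the ratio of knockout to control means was 1.07 at both stages. By class the control ratio of embryos to oocytes was 6.38 for Snord, 7.28 for Snora and 4.60 for Scarna genes. Because CPM is a share, a rise in snoRNA per cell and a fall in other RNA per cell cannot be told apart.

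**Figure D1:**
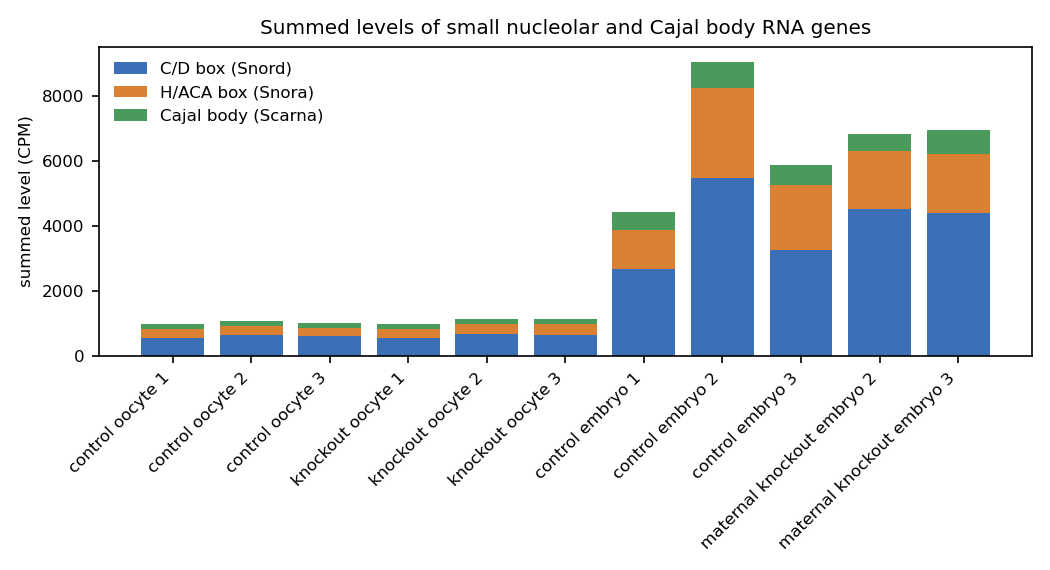
Summed CPM of the 66 Snord, 34 Snora and 9 Scarna genes in each of the 11 libraries, as stacked bars from 0. Oocyte totals lie between 962 and 1139 CPM and embryo totals between 4409 and 9042 CPM, with the highest bar in control embryo library 2.

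A few members held much of the signal. The most abundant in every oocyte library was Snord118, the U8 RNA that is needed to process the precursor of 28S and 5.8S ribosomal RNA. It stood at 187, 255 and 215 CPM in control oocytes, 221, 240 and 248 CPM in knockout oocytes, 615, 1009 and 893 CPM in control embryos, and 607 and 1195 CPM in maternal knockout embryos. Its share of all member reads was 19.4% to 23.7% in oocytes. Snora47, an H/ACA RNA in an intron of Zbed3, was the most abundant member in 3 embryo libraries, with 506, 1439 and 895 CPM in control embryos and 827 and 754 CPM in maternal knockout embryos, against 120 to 172 CPM in oocytes. The 3 most abundant members held 40.5% to 44.8% of member reads in oocytes and 31.0% to 38.7% in embryos. Without Snord118 the control ratio of embryos to oocytes was 7.07.

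Per kilobase of deposited gene width, Snord118 led in oocytes (1600 CPM per kb in controls), followed by Snora47 (1019) and Snord49b (644), a C/D RNA of a noncoding host. In control embryos Snora47 (7512 CPM per kb) and Snord49b (7375) led, then Snord118 (6125), Snord104 (4106), Snord15b of the Rps3 gene (3176) and Snord100 of the Rps12 gene (3062). The order among the top embryo members was not stable between libraries: Snord49b had 336, 784 and 274 CPM in control embryos and 681 and 478 CPM in maternal knockout embryos. Snord73b ranked at place 61 of 109 in control oocytes, 76 in knockout oocytes, 65 in control embryos and 39 in maternal knockout embryos. Of the 109 deposited widths, 104 equalled the RefSeq length. For 89 members the RefSeq length was shorter than the GENCODE RNA, as in Scarna2 with 61 against 414 bases. Levels and ranks per kilobase rest on these widths. The largest departure from RefSeq was Snord96a, given 1174 bases where RefSeq has 77, so its reads come from a longer region of Rack1.

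**Figure D2:**
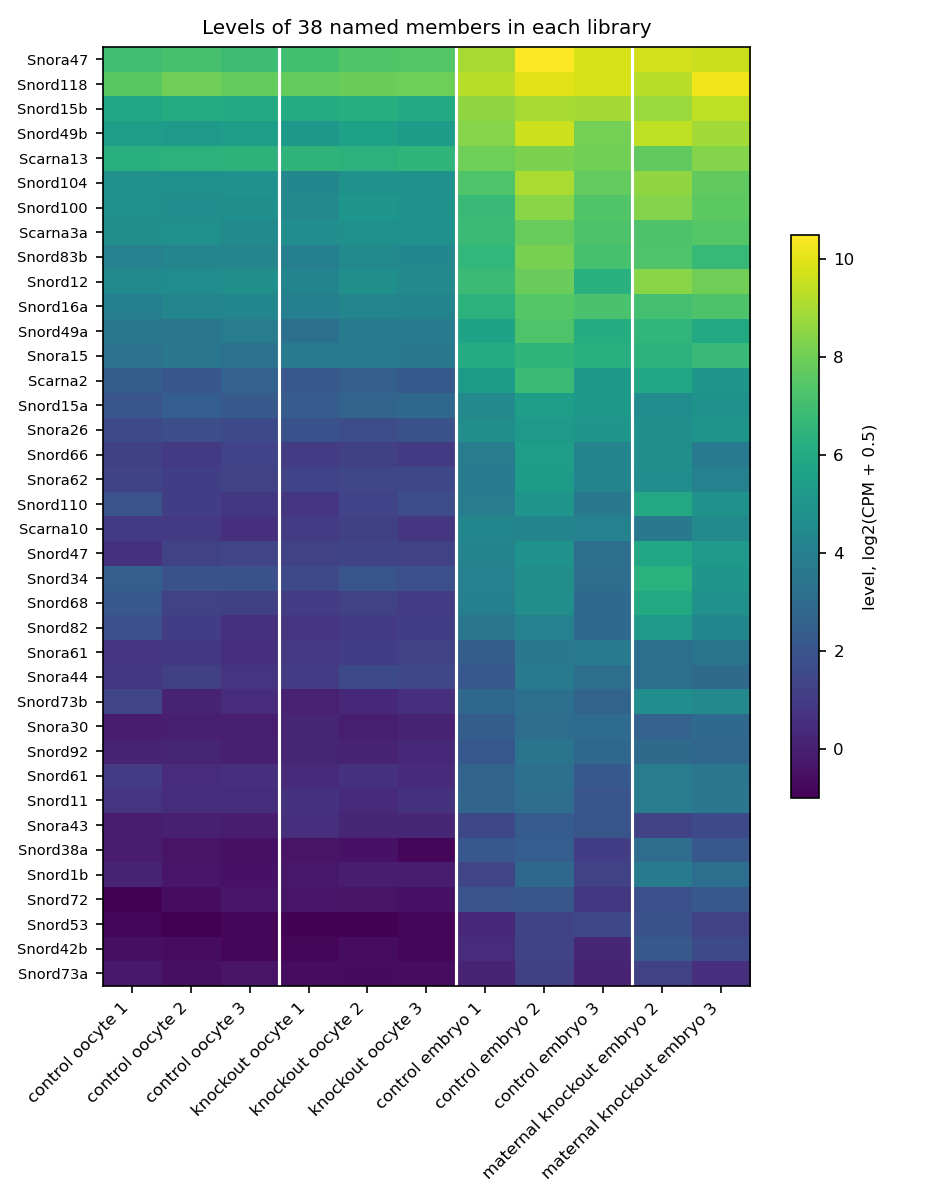
Levels of 38 named members (rows, sorted by their mean in control embryos) in each library (columns), as log2(CPM + 0.5), with white lines between the 4 groups. Embryo columns are brighter than oocyte columns in each row shown, and Snora47 and Snord118 hold the top rows.

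The first comparison asked how the RNAs differ between control oocytes and control 2-cell embryos. Nearly all members rose, across the 3 classes. Of 100 members that passed the filter on low counts, 99 were higher in embryos at an adjusted p under 0.05 and 0 were lower, where 43.1% of all 15577 genes tested were higher 40.0% lower and 83.1% either (edgeR quasi-likelihood test, Benjamini-Hochberg adjustment over all genes tested). Over the members tested the log2 change had a median of 2.90, with a range from 0.52 to 5.09, against 0.07 over all genes tested. Each of the 58 Snord and 33 Snora RNAs tested passed, and 8 of 9 Scarna RNAs. The exception was Scarna9, at 0.890, 0.930 and 0.573 CPM in control oocytes and 1.06, 1.72 and 1.09 CPM in control embryos (log2 change 0.67, SE 0.35, adjusted p = 0.0980). It was at least 4-fold for 90 members and at least 8-fold for 43. Counting also the 9 members below the filter, which include the lowest C/D RNAs, 105 of 109 had every embryo library above every oocyte library, against 44.3% of all genes tested.

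The log2 change ran from 2.13 to 3.83 in the 33 H/ACA RNAs tested and from 0.52 to 5.09 in the 58 C/D RNAs tested. The C/D limits belong to Snord96a, counted over 1174 bases, and Snord53, with few oocyte reads. The median SE was 0.27 for H/ACA and 0.40 for C/D RNAs, so the ranges are not compared further. Snora30, from the Srcap gene, stood at 0.460, 0.477 and 0.469 CPM in control oocytes and 4.73, 8.15 and 7.64 CPM in control embryos (log2 change 3.83, SE 0.29). Snora26, from the noncoding Dancr gene, stood at 2.46, 2.86 and 2.47 CPM against 25.1, 35.4 and 31.3 CPM (log2 change 3.53, SE 0.17). Snora62, from the ribosomal protein gene Rpsa, had a log2 change of 3.61 (SE 0.39). Among these, the embryo values lay far above the oocyte values and varied less than 3-fold between libraries.

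Of the C/D RNAs, Snord53 had the largest log2 change, 5.09 (SE 0.69), which rests on 2, 0 and 3 reads in control oocytes against 13, 40 and 53 reads in control embryos. Its neighbour in the Wdr43 gene, Snord92, rose by 3.60 (SE 0.36). Snord72, from Rpl37, went from 1, 6 and 12 reads to 59, 71 and 30 reads (log2 change 3.96, SE 0.58). Snord66, from the translation initiation factor gene Eif4g1, stood at 1.75, 1.43 and 1.95 CPM in control oocytes and 13.6, 42.1 and 17.7 CPM in control embryos (log2 change 3.81, SE 0.44). Snord96a had the smallest change among the members that passed, 0.52 on the log2 scale, with 15.9 to 16.8 CPM in control oocytes and 18.4 to 31.2 CPM in control embryos, which do not overlap.

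Among the Cajal body RNAs, Scarna10, which overlaps an exon of Ncapd2, had 1.41, 1.43 and 0.989 CPM in control oocytes and 19.1, 17.5 and 16.2 CPM in control embryos (log2 change 3.76, SE 0.20). Scarna2, which has no host, rose from 4.79, 3.74 and 5.70 CPM to 37.3, 113 and 34.0 CPM (log2 change 3.67, SE 0.61). In Scarna2 control embryo library 2 was about 3 times higher than the other 2. Scarna13, the most abundant of this class in oocytes (77.1, 83.9 and 84.4 CPM), had a smaller change, to 251, 298 and 264 CPM (log2 change 1.70, SE 0.10).

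The same comparison in knockout oocytes and maternal knockout embryos gave 104 of 105 tested members higher and 0 lower, with 42.5% of 16592 genes tested higher, 37.7% lower and 80.2% either. The median log2 change was 3.03 against 0.09 over all genes tested. Again Scarna9 did not pass (0.85, SE 0.48, adjusted p = 0.126). In all, 107 of 109 members had every embryo library above every oocyte library, against 46.4% of all genes tested. The 10 largest rises among members with at least 1 CPM in embryos were all C/D RNAs here: Snord53 (5.66 on the log2 scale), Snord42b (4.86), Snord38a (4.86), Snord73b (4.79), Snord68 (4.69), Snord1b (4.66), Snord47 (4.51), Snord110 (4.42), Snord82 (4.19) and Snord34 (4.16). In the controls the corresponding changes were 5.09, 3.08, 3.52, 2.55, 2.66, 3.19, 3.37, 3.18, 2.57 and 2.09. These 10 were picked for their rise after knockout, so smaller control values follow in part from the choice. Of the 10 largest rises in controls, Snord53 (5.66) and Snord38a (4.86) were larger after knockout. The others were smaller there: Snord72 3.66, Snora30 3.47, Snord66 3.54, Scarna10 3.41, Scarna2 3.32, Snora62 3.17, Snord92 3.33 and Snora26 3.16. The 2 stage comparisons share no library.

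**Figure D3:**
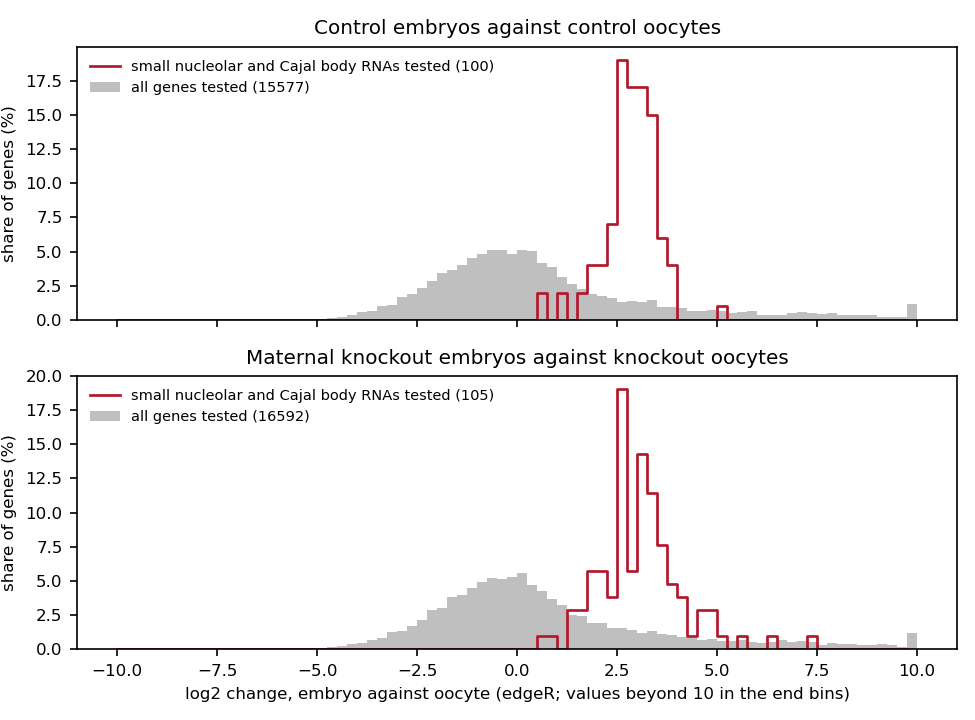
Distribution of the log2 change from oocyte to 2-cell embryo, in controls (top) and in knockout oocytes and maternal knockout embryos (bottom), as the share of genes per bin of 0.25. Grey bars are all genes tested, centred near 0 with a long tail to the right, and the red line is the members tested, whose medians are 2.90 and 3.03.

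The messenger RNAs for the proteins that hold these RNAs also rose between oocytes and embryos. Protein was not measured. The genes of the 4 core proteins of C/D particles all passed in controls. Fbl, which encodes the methyltransferase, stood at 1.27 ± 0.124 CPM in oocytes and 18.8 ± 4.83 CPM in embryos (n = 3 each, log2 change 3.85, SE 0.23). Nop58 rose by 2.56 (SE 0.09), Snu13 by 0.89 (SE 0.12) and Nop56 by 0.65 (SE 0.10). The genes of the 4 core proteins of H/ACA particles passed as well, with Nhp2 at 2.03 (SE 0.11) and Gar1 at 1.04 (SE 0.15). Nop10 was at 0.82 (SE 0.15), and Dkc1, which encodes the pseudouridine synthase dyskerin, at 0.67 (SE 0.09). The median log2 change was 1.72 for the C/D list and 0.93 for the H/ACA list. In the knockout stage comparison the same 4 of 4 and 4 of 4 were higher.

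Of 15 genes for particle assembly and Cajal bodies, 11 were higher and 3 lower in control embryos, where 43.1% of all genes tested were higher and 83.1% were called in either direction. Nufip1, an assembly factor, rose by 3.87 (SE 0.12), Coil, the marker protein of Cajal bodies, by 3.96 (SE 0.15), and Znhit3 by 3.93 (SE 0.17). Ruvbl2, a helicase-like ATPase of the assembly complex, fell by 2.43 on the log2 scale, while its partner Ruvbl1 rose by 4.29. Wrap53, which brings Cajal body RNAs to their place, stood at 0.130 ± 0.182 CPM in control oocytes and 30.0 ± 4.72 CPM in control embryos. Of 9 genes for processing and transport, 6 were higher and 2 lower. Tgs1, which modifies the cap of snoRNAs made from their own promoter, rose by 5.16 (SE 0.14), Dbr1, which opens intron lariats, by 3.76 (SE 0.19), and Xpo1 by 2.42 (SE 0.12), whereas Parn, which trims 3′ tails, fell by 1.15 on the log2 scale. Of 6 other short structured RNAs tested, from a list of 11, all 6 were higher. They include Rmrp, at 3.15 ± 0.490 CPM and 130 ± 31.0 CPM (log2 change 5.34, SE 0.20), and Rnu12 (3.02, SE 0.22).

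Host genes mostly rose too, but the size of the change in a member and in its host were barely related. In controls, 94 member and host pairs with 72 hosts could be compared. Of these hosts 59 were higher and 9 lower in embryos, where 43.1% of all genes tested were higher and 40.0% lower. The median log2 change was 1.96 over the 72 hosts and 2.89 over the members of the 94 pairs. Within pairs, the median of member minus host was 0.84. Across the 94 pairs Spearman's rho was 0.06 (a description: pairs share libraries, and some share a host). In 83 pairs both values were positive. In 11 pairs the member was positive and the host negative, and there was none of the reverse. Snora47 rose by 2.86 (SE 0.41) where its host Zbed3 fell by 1.21 (adjusted p = 2.14e-07). Snord82, from Ncl, which encodes nucleolin, rose by 2.57 (SE 0.39), with Ncl at -0.11 (SE 0.11, adjusted p = 0.371). Snord15a and Snord15b rose by 2.91 and 2.82, close to their host Rps3 at 3.01. Snord61 rose by 2.47 where its host Rbmx rose by 5.19.

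Of the 20 noncoding genes known as snoRNA hosts, 18 were higher and 0 lower in control embryos. Of all genes tested, 43.1% were higher and 40.0% lower. The median of the 20 was 3.08 on the log2 scale. Snhg15 had the largest change of the list, 6.62 (SE 0.30). Snhg5 rose by 4.14 (SE 0.18), and Snhg11 by 5.42 (SE 0.32). Gas5, the host of Snord47, rose by 2.94 (SE 0.21), close to the 3.37 (SE 0.47) of that RNA. In the knockout stage comparison 17 of the 20 were higher and 1 was lower, where 42.5% of all genes tested were higher and 37.7% lower. Levels per kilobase use the deposited width, which for most members is shorter than the GENCODE RNA. On that scale 62 of 103 members exceeded their host in control oocytes (median ratio of member to host 2.14). In control embryos 83 of 103 did so (median ratio 3.63). The corresponding counts were 63 (2.07) and 86 (4.81) in knockout oocytes and maternal knockout embryos.

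Between oocyte genotypes no member passed the test. Of 92 members that could be tested, edgeR called 0 higher and 0 lower after knockout, and DESeq2 and limma-voom likewise gave 0. All genes tested numbered 14235, of which 0.45% were higher and 0.133% lower. At an unadjusted p under 0.05, 5 members were higher and 0 lower, where 5.67% of all genes tested were higher and 4.62% lower, so the members' share higher was near that of all genes. The summed cumulus and sperm markers of knockout oocytes, given above, did not overlap those of control oocytes, and their part here was not tested. The median log2 change of the members was 0.06, and the extremes were -0.62 and 0.68. The 5 smallest p-values belonged to Snora15, Snord15a, Snora44, Snora61 and Snora43. Snora15, from the chaperonin gene Cct6a, stood at 9.54, 11.1 and 9.68 CPM in control oocytes and 12.5, 12.4 and 12.0 CPM in knockout oocytes (log2 change 0.26, SE 0.09, adjusted p = 0.337). Snora43, from Snhg7, stood at 0.460, 0.502 and 0.442 CPM against 0.943, 0.691 and 0.662 CPM (log2 change 0.68, SE 0.30, adjusted p = 0.462). In both the groups did not overlap. Of all 109 members, tested or not, 5 lay wholly above and 4 wholly below the controls, where 10.1% and 5.66% of all genes tested did so.

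Between embryo genotypes 1 member passed. Of 102 members tested, Snord73b was higher in maternal knockout embryos and 0 were lower (edgeR, adjusted p under 0.05), where 4 of 15414 genes tested were higher (0.026%) and 0 lower (0.0%). At an unadjusted p under 0.05, 10 members were higher and 1 lower, where 2.08% of all genes tested were higher and 1.11% lower. The summed oocyte markers were also higher in both maternal knockout libraries (1954 and 1960 CPM) than in the controls (1473 to 1775 CPM), and their part here was not tested. The classes differed in sign: 39 of 60 Snord RNAs had a positive log2 change (median 0.27), and 9 of 33 Snora RNAs (median -0.20) and 1 of 9 Scarna RNAs (median -0.04) did. The difference between classes was not tested. Counting members tested or not, in 20 of 66 Snord RNAs both maternal knockout libraries were above all 3 control libraries, and in none were both below. Of 34 Snora and 9 Scarna RNAs, 0 were separated in either direction. Of all genes tested, 11.4% were so separated above and 6.38% below.

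Snord73b had 123, 164 and 133 reads in control embryos and 615 and 424 reads in maternal knockout embryos, or 6.84, 8.57 and 5.77 CPM against 24.3 and 20.5 CPM. Both maternal knockout libraries were more than 2 times above the highest control library. The group means were 7.06 and 22.4 CPM, and the log2 change was 1.63 (SE 0.23, edgeR adjusted p = 0.0113). The call held in 8 of the 13 alternatives run. It was lost without control embryo library 1 (adjusted p = 0.284) or 3 (0.0780), without maternal knockout embryo library 2 (0.0834), with all 11 libraries in 1 fit (0.162) and with the replicate number as a block (0.199). The log2 change itself stayed between 1.47 and 1.80 over all alternatives. In those with both maternal knockout libraries the adjusted p ran from 4.16e-08 (edgeR without the filter) to 0.284.

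In oocytes Snord73b had 70, 23 and 34 reads in controls and 21, 29 and 38 reads in knockouts. The ranges overlap, with control oocyte library 1 the highest. The log2 change was -0.62 (SE 0.47, adjusted p = 0.744), and without control oocyte library 1 it was 0.063 (adjusted p = 0.988). The difference of the knockout effects in embryos and oocytes was 2.24 (SE 0.53), with an adjusted p of 0.913 in the fit of all 11 libraries. No member passed that test: of 106 tested, 0 were more positive and 0 more negative by edgeR, and DESeq2 and limma-voom also gave 0, where 0.0118% of 17018 genes tested were more positive. At an unadjusted p under 0.05 there were 11 more positive and 2 more negative members, against 2.53% and 2.88% of all genes tested. A difference between the stages in the effect on Snord73b thus did not pass in these libraries.

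Neither its host gene nor Snord73a passed the test between embryo genotypes, and the estimate for Snord73a rests on few reads. Rps3a1 stood at 17.3, 16.5 and 22.9 CPM in control embryos and 11.8 and 17.5 CPM in maternal knockout embryos (log2 change -0.40, edgeR adjusted p = 1.00). Snord73a, in the same host, had 11, 34 and 14 reads in control embryos and 49 and 20 reads in maternal knockout embryos, so the groups overlapped (log2 change 0.51, SE 0.52, adjusted p = 1.00). Per kilobase, Snord73b exceeded Rps3a1 by 4.96 times in control embryos and 20.3 times in maternal knockout embryos. The ratio was 4.16 in control oocytes and 2.11 in knockout oocytes.

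**Figure D4:**
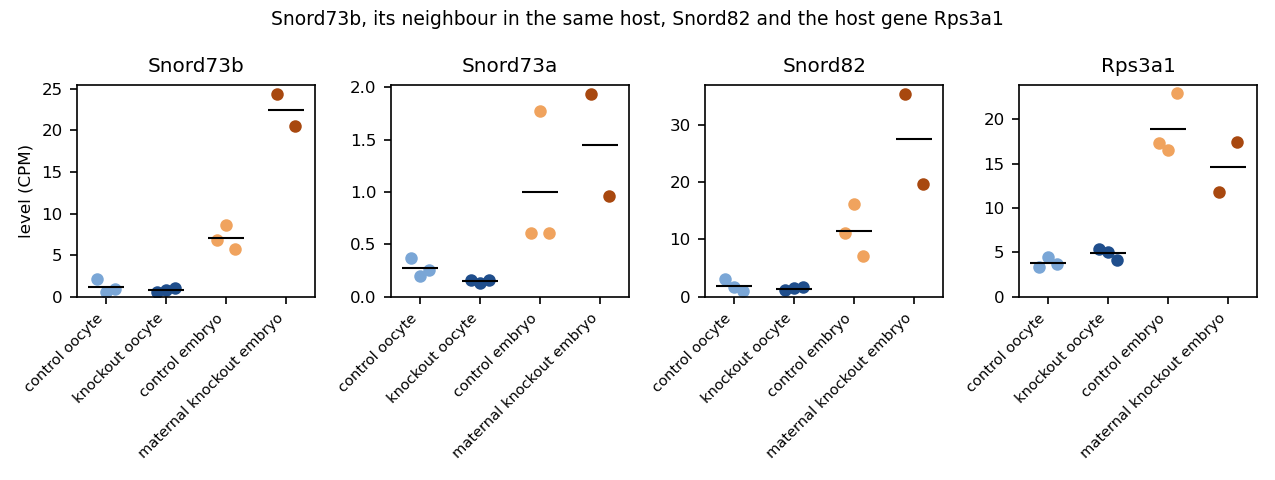
Levels in CPM, on axes from 0, of Snord73b, Snord73a, Snord82 and the host Rps3a1 in each library (points) with the mean of each group (lines). Snord73b is at 20.5 and 24.3 CPM in maternal knockout embryos and at most 8.57 CPM elsewhere, and Rps3a1 does not follow it.

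In the same embryos 13 of 60 Snord RNAs tested, Snord73b among them, had a log2 change of at least 1. The count was 0 for Snora and for Scarna RNAs, and 186 of all 15414 genes tested. Near Snord73b in size were Snord1b (1.53), Snord68 (1.46) and Snord47 (1.29). The C/D RNAs described next had log2 changes of 0.95 to 1.73 with wider spread. Snord34, from Rpl13a, had the largest, 1.73 (SE 0.70, edgeR adjusted p = 1.00), at 15.4, 25.1 and 8.16 CPM in control embryos and 80.1 and 31.4 CPM in maternal knockout embryos. Snord82 stood at 11.1, 16.2 and 7.03 CPM against 35.3 and 19.7 CPM (log2 change 1.22, SE 0.36, adjusted p = 1.00). Snord11, from the Nop58 gene, stood at 6.29, 7.99 and 3.56 CPM against 13.9 and 11.2 CPM (log2 change 1.04, SE 0.30). Snord42b, from Rpl23a, stood at 0.890, 2.04 and 0.695 CPM against 4.07 and 2.51 CPM (1.41, SE 0.43), and Snord61 at 5.90, 8.78 and 3.95 CPM against 13.8 and 10.8 CPM (0.95, SE 0.30). In Snord34, Snord82, Snord11, Snord42b and Snord61, as in Snord73b, control library 3 was the lowest and maternal knockout library 2 the highest. Snord73b had the largest change after Snord34, and its SE of 0.23 was below the median SE of 0.39 over the members tested.

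The log2 change between embryo genotypes varied with base composition. This was looked for after the values were seen and carries no test. Across the 102 members tested, Spearman's rho with the share of G and C bases in the RNA was -0.73. It was -0.70 in Snord RNAs (n = 60) and -0.57 in Snora RNAs (n = 33). Its size depended on the control library. For differences of log2(CPM + 0.5) over 99 members, maternal knockout libraries 2 and 3 gave -0.26 and -0.32 against control library 1. They gave -0.68 and -0.58 against control library 2, and -0.56 and -0.73 against control library 3. Within Snora RNAs the values against control library 1 were 0.10 and -0.18. For the log2 change between embryo genotypes, rho with RNA length was -0.54 (Snord -0.53, Snora -0.23). The 2 features were themselves related: rho of G and C content with length was 0.40 over 109 members (Snord 0.45, Snora -0.06). Their parts were not separated. Among 14878 other genes tested, rho of the log2 change with G and C content was 0.12. In knockout against control oocytes rho over 92 members was 0.12 with G and C content and 0.49 with length. By class the rho with length was 0.52 (Snord) and -0.25 (Snora). Its sign was thus opposite to that in embryos in Snord but not in Snora RNAs. Of the Snord RNAs with under 45% G and C, 29 of 31 tested had a positive log2 change (median 0.87), and of those at or above 45%, 10 of 29 (median -0.12). Snord73b, at 38.0%, is in the first set, as are Snord82 (41.4%) and Snord11 (42.9%), whereas Snord34 is at 48.6%.

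The same feature also moved between replicates of 1 genotype. Between control embryo libraries 3 and 1, the difference of log2(CPM + 0.5) had a rho of 0.62 with G and C content over 99 members, and between libraries 2 and 1 it was 0.54. Between control libraries 2 and 3 the rho was -0.25 with G and C content and -0.60 with length (Snord -0.39, Snora 0.20). Between maternal knockout libraries 2 and 3 it was -0.02 with G and C content and -0.61 with length (Snord -0.57, Snora 0.04). The negative relation of this difference with length was thus shared by both genotypes over all members and within Snord RNAs. It was absent within Snora RNAs. The summed level of Snord RNAs under 45%, divided by that of the others, was 0.344, 0.349 and 0.185 in control embryos and 0.563 and 0.346 in maternal knockout embryos. It was 0.237, 0.175 and 0.200 in control oocytes and 0.173, 0.196 and 0.175 in knockout oocytes. The genotypes thus overlapped in this ratio in embryos, with control library 3 the lowest and maternal knockout library 2 the highest. The part of base composition and length in the result for Snord73b was not tested.

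**Figure D5:**
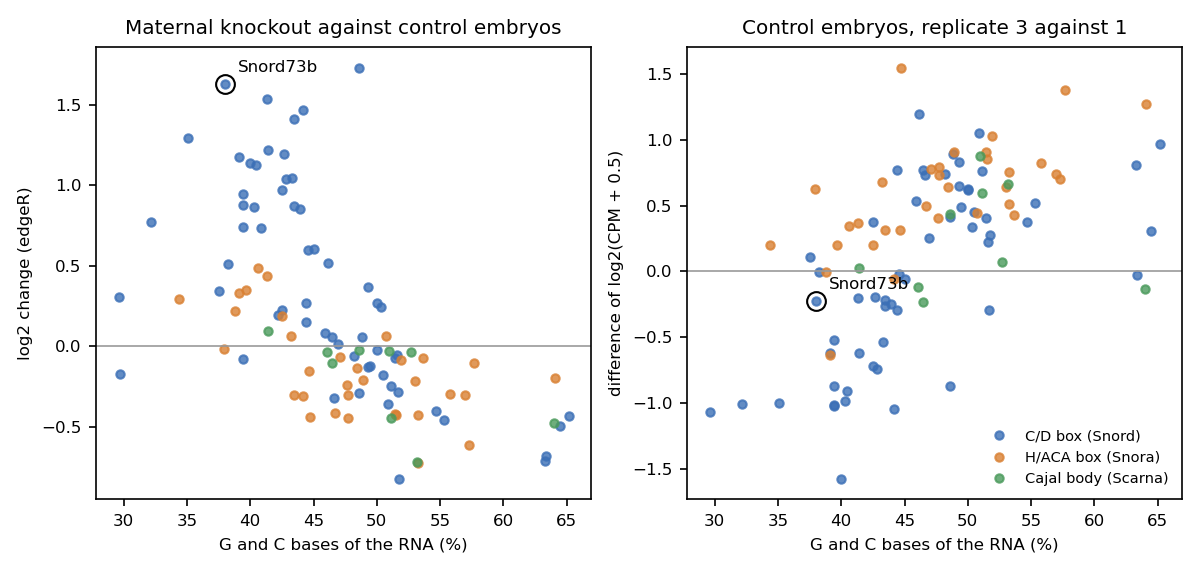
Difference of each member against the G and C content of its RNA: left, log2 change of maternal knockout against control embryos (102 members), and right, control embryo library 3 against library 1 (99 members with at least 100 reads in all). Points are coloured by class and Snord73b is circled; the left panel falls with G and C content (rho -0.73) and the right panel rises (0.62).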

How the data were processed

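The authors deposited whole-number read counts per gene, identified by Entrez number, with a width per gene, in 11 libraries made from total RNA with the SoLo RNA-Seq system and PCR, per the labels' protocols. STAR 2.5.0a, SAMtools and the build GRCm38 (mm10) are named in the submitters' processing notes. The counting program and its treatment of strand, duplicate and shared reads are not given in these sources, so overlapping, antisense and near-identical genes are uncertain. For maternal knockout embryos, replicate 1 was not analysed here. Symbols and coordinates came from RefSeq (GRCm38.p6), in which 24387 of 24421 identifiers matched, and sequences from GENCODE transcripts. The C box was searched there, because the promoter table holds no member.

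Levels are counts scaled to the library total (CPM). Tests used edgeR 4.0.16 in R 4.3.3 (filterByExpr with a count minimum of 10 and a total minimum of 15, TMM, quasi-likelihood F test with robust estimates, adjusted p threshold 0.05). The SE is the log2 change divided by the square root of F. A comparison used the libraries of its groups, and the difference of effects used all 11. Alternatives were DESeq2 1.42.0, limma-voom (limma 3.58.1), RLE factors, no filter, a count minimum of 50, a replicate block, 1 fit of all libraries and each library left out. A run without the 2 embryo libraries numbered 2 was chosen after seeing the data. Simulated data were used to check the tests, and no 2 libraries agreed within sampling noise. Intervals over counts and floors cover counting error only.

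The members and gene lists were chosen with earlier results of these data known. Named members were Snord73b and its neighbour, those called between genotypes, the 5 smallest p in each such comparison, the 10 largest rises in each stage comparison (at least 1 CPM) and the 10 highest levels per kb in each group, with their hosts, the core proteins and up to 4 called genes of other lists. Scarna9, Snora35, Snord43, Snord96a and some list genes (Parn, Ruvbl2, Wrap53 and others) were named after their values were seen. A host gene covered by this rule is not reported here.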

Additional observations from a re-analysis of the deposited data

How the results depend on the processing

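The stage counts stayed within 1.5 times under every alternative run. Between embryo genotypes, 1 member was higher; the count was 5 with no filter on low counts (Snord11, Snord111, Snord1b, Snord73b and Snord82), 0 with all 11 libraries in 1 fit, 7 without the 2 embryo libraries numbered 2 (Snord73b among them), and 0 to 3 when 1 library was left out. Between oocyte genotypes it was 0 to 1 when 1 library was left out, the call being Snora47 without knockout oocyte replicate 1. The log2 change of Snord73b in oocytes ran from -0.97 to 0.063 when 1 library was left out, positive without control oocyte replicate 1 and negative without each of the others. With the replicate number as a block, the stage counts were 98 and 103 higher, and the oocyte count and the difference 0. The embryo count was 1, which was Snord34, with Snord73b at an adjusted p of 0.199 (edgeR). Over all genes, the deviations of same-numbered libraries had correlations of -0.107 to 0.0867, so the numbers were not taken as pairs. The embryo libraries numbered 2 nonetheless shared high Lars2 and the same relation to length, which was present in Snord but not in Snora RNAs. Counting members with at least 10 reads at equal depth gave means of 82.6 (control oocytes), 83.3 (knockout oocytes), 99.4 (control embryos) and 101 (maternal knockout embryos). With TMM-scaled totals the maternal knockout embryo mean was 6615 CPM. The cause of these shifts was not tested. Depth limited the 9 members below the filter in the control stage comparison and Snord73a, with 5 to 49 reads a library.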

Other observations

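Members that share their place with an annotated microRNA gene were 8 of 109, among them Scarna13 (Mir3069), Scarna3a (Mir1843b), Snora36b (Mir664) and Snord33 (Mir5121). Their counts cannot be assigned to either RNA. Scarna3a had 21.3 to 27.7 CPM in oocytes and 114, 224, 154, 153 and 177 CPM in the 5 embryo libraries.

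In the pairs of opposite sign in controls, the host with the largest fall was Sf3b3, a splicing factor gene, at -2.10 (SE 0.08) beside Snord111 at 2.87. Rpl32 stood at -1.23 beside Snora7a at 3.37, and Eef1b2, a translation elongation factor gene, at -0.88 beside Snora41 at 2.13. The signs were the same after maternal knockout, with Sf3b3 at -2.11, Rpl32 at -1.44 and Eef1b2 at -0.93.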
